A study of Mus musculus with 20 samples.

Results

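The genes described here are the collagens, laminins and integrins of mouse DC2 cells, with 5 further matrix genes that work beside them, Fn1, Hspg2, Nid1, Nid2 and Sparc. They were chosen by gene symbol (Col, Lama to Lamc, Itga and Itgb genes), not by how they behaved, and number 85 of the 21509 protein-coding genes in each of the 2 deposited tables. DC2 is an immortalized line derived from principal cells of the mouse distal caput epididymis, the segment through which testicular fluid passes. In the first table, 6 libraries of cells kept under fluid flow (flow; 3 h at a shear stress of 1 dyn/cm2) stand against 6 libraries of cells without flow (static). In the second table, 4 libraries of cells transfected with Ift88 siRNA stand against 4 libraries with control siRNA. Ift88 encodes an intraflagellar transport protein needed to build the primary cilium. According to the study's methods, both siRNA groups were also under flow, the Ift88 siRNA was a mixture directed at several sites of the transcript, all cells were kept in low serum before the experiment, and all microchannels were coated with human plasma fibronectin, so every group carried an added matrix protein. The labels of a single library disagree, its title placing it under flow and its treatment field in the static group; it entered as flow replicate 6, following its title, and results that rest on it are also given without it.

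Epithelial cells rest on a basement membrane, a sheet in which a laminin network and a type IV collagen network are joined by nidogen and the proteoglycan perlecan. Integrins, each a pair of one α and one β chain, hold the cell to this sheet and connect it to actin through talin, vinculin and other adaptors, which makes them one of the routes by which cells feel force. Laminins are trimers of an α, a β and a γ chain, and type IV collagen is a trimer of α chains encoded by gene pairs that lie head to head on the same chromosome.

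The values are TPM, transcript abundances corrected for transcript length and scaled to the same total in every library, so levels of different genes can be compared. Differences are given on the log2(TPM + 1) scale with their standard error (SE), from limma over all genes averaging 1 TPM or more in that table, a scale that understates changes of genes at low TPM. A gene was called at a Benjamini-Hochberg adjusted p under 0.05 together with a change over 1.5-fold. Of the 85 members, 32 averaged 1 TPM or more in each table and were tested, 31 of them in both. The least abundant tested members were Col20a1 (1.48 TPM) in the flow table and Lamb3 (1.47 TPM) in the siRNA table, and the most abundant untested ones were Itga1 (0.898 TPM) and Col4a3 (0.971 TPM). The number of reads behind a value is unknown, since TPM keep no total. The labels do not say whether libraries came from separate cultures, so p-values measure the spread between these libraries.

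The silencing was seen in the table itself. Silenced libraries held 1.30 ± 0.33 TPM of Ift88 and control siRNA libraries 4.14 ± 0.054 TPM (SD, n = 4 each), a difference of -1.17 (SE 0.13, limma adjusted p = 0.00212). Under flow and in static cells Ift88 was at 4.43 ± 0.98 and 4.64 ± 0.38 TPM (SD, n = 6 each). Of the principal cell markers examined, Pax8 (82.3 TPM) and Pax2 (31.6 TPM) were present in the flow table, whereas Aqp9 had a mean of 0.171 TPM and Crisp1 and Lcn8 were listed at 0 in every library. Of the 9 general epithelial markers, Krt18 (52.1 TPM), Cldn4 (48.2 TPM), Krt19 (15.8 TPM) and Elf3 (8.35 TPM) were present, whereas Cdh1 (0.849 TPM), Krt8 (0.478 TPM), Cldn7 (0.349 TPM), Epcam (0.0638 TPM) and Esrp1 (0.00332 TPM) were below 1 TPM. Among markers of other cells, Postn, made by fibroblasts, stood at 17.8 TPM and Cd68, a lysosomal gene abundant in macrophages, at 21.4 TPM, while Thy1, Adgre1 and Cd3e were listed at 0. In bulk RNA, fewer cells of a type and less RNA per cell cannot be told apart.

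The matrix genes of DC2 cells were led by basement membrane and pericellular components. Sparc, a secreted glycoprotein that binds collagens, was the most abundant member, with 690, 804 and 1060 TPM as the lowest, median and highest static library. Col18a1, the basement membrane collagen from which endostatin is cleaved, had 277, 379 and 532 TPM in the same libraries. It made up 42.8% of the summed mean TPM of all 44 collagen genes. Fn1, encoding fibronectin, had 125, 173 and 288 TPM. Nid1, encoding nidogen 1, had 55.1, 68.9 and 95.6 TPM, and its relative Nid2 had a mean of 0.0188 TPM. Hspg2, encoding perlecan, had 41.1, 62.8 and 96.6 TPM. In order, Sparc stood above Col18a1 and Col18a1 above Fn1, but the libraries of Col18a1 and Fn1 overlapped, as did those of Nid1 and Hspg2.

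Type IV collagen was represented by 4 of its 6 chains. The chains of the common network were Col4a1 (79.9, 111 and 176 TPM as the lowest, median and highest static library) and Col4a2 (47.8, 65.8 and 107 TPM). Col4a5 had 40.3, 52.7 and 78.3 TPM and Col4a6 0.991, 3.04 and 8.84 TPM. Col4a3 and Col4a4, which join Col4a5 in the network of the kidney filter, had means of 0.305 and 0.172 TPM. Col4a5 and Col4a6 were described after their values were seen.

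Col4a5 and Col4a6 lie head to head on chromosome X and differed in level and, as described further on, in their spread between replicates, so the sequence before each start site is shown. Their RefSeq start sites lie 1343 bases apart (GRCm38.p6). Shown is the promoter stretch of the RefSeq table outside the GENCODE M21 bounds of each gene. The stretch for Col4a6 is chrX:141474077-141474326 (minus strand, 250 bases) and that for Col4a5 is chrX:141475169-141475384 (plus strand, 216 bases). Both are written 5′ to 3′ on the strand of their gene, and capitals mark a match to the SP1 motif GGGCGG on either strand.
Col4a6: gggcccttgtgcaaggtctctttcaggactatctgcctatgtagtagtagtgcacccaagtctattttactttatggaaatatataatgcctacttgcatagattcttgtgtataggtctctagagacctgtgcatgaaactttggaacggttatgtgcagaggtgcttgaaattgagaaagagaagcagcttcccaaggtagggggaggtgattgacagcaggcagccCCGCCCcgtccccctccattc
Col4a5: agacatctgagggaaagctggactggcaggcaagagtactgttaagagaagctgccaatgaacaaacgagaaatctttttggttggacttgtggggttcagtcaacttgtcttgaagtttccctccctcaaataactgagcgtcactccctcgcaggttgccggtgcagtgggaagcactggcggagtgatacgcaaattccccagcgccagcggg
The SP1 motif matched once before Col4a6 and not before Col4a5. Neither stretch matched the TEAD motif GGAATG or the AP-1 motif TGANTCA on either strand. Of 32851 RefSeq promoters of 250 bases, 32.7% held the SP1 motif, 12.6% the TEAD motif and 6.75% the AP-1 motif. Col4a1 and Col4a2 are arranged in the same way on chromosome 8, where their start sites overlap by 22 bases.

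Of the other collagens, Col6a1, a chain of beaded filaments, had 93.7, 108 and 180 TPM in static cells, in the range of Col4a1, while its partner Col6a2 had 7.60, 11.4 and 20.3 TPM and the third chain, Col6a3, a mean of 0.0662 TPM. Col8a1, a network-forming short-chain collagen, had 43.0, 44.5 and 46.4 TPM. Interstitial collagens were low. Of 11 fibrillar collagens only Col5a1, which regulates the diameter of fibrils, was tested (42.6 TPM), and Col1a1, Col1a2 and Col3a1 had means of 0.697, 0.750 and 0.0167 TPM. Of the fibril-associated collagens Col16a1 (36.9 TPM), Col12a1 (6.43 TPM) and Col20a1 were tested, as was Col7a1, which forms anchoring fibrils (3.19 TPM). None of the 4 transmembrane collagens reached 1 TPM.

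Laminin chains were unequal within each class. Lama5 supplied 98.7% of the summed α chain TPM, with 25.3, 42.7 and 59.9 TPM as the lowest, median and highest static library, and none of the other 4 α chains was tested. Among β chains Lamb2 (71.9, 108 and 157 TPM) lay above Lamb1 (9.70, 11.3 and 23.7 TPM) and Lamb3 (1.15, 1.5 and 3.95 TPM) without overlap. Among γ chains Lamc1 had 47.1, 61.4 and 73.6 TPM and supplied 88.2% of the summed γ chain TPM. Lama3, the α chain that joins Lamb3 in the laminin of hemidesmosomes, had a mean of 0.544 TPM in the flow table and 0.109 TPM in the siRNA table.

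Integrins were led by β1. Itgb1 had 353, 391 and 432 TPM as the lowest, median and highest static library and made up 79.0% of the summed β chain TPM, and Itgb5, the partner of αV at vitronectin, had 85.8, 99.0 and 133 TPM. The laminin receptor chain Itga3 had 81.1, 111 and 174 TPM, above the other laminin-binding chains Itga7 (9.53, 12.5 and 24.5 TPM) and Itga6 (6.80, 9.89 and 12.8 TPM). Of the chains that bind the RGD motif, Itgav had 58.2, 69.4 and 84.8 TPM and Itga5, the fibronectin receptor chain, 38.9, 50.1 and 67.5 TPM. The libraries of Itgav and Itga5 overlapped. None of the 4 collagen-binding α chains was tested, Itga1 and Itga2 having means of 0.898 and 0.723 TPM. Itgb4, the hemidesmosomal partner of Itga6, had a mean of 0.0847 TPM. Itga2b and Itgb2, known best from platelets and leukocytes, were at 6.02 and 5.77 TPM. None of the 4 leukocyte α chains among the members, Itgae, Itgal, Itgam and Itgax, was tested.

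Of the 53 untested members in the flow table, 28 had a mean under 0.1 TPM, and Col11a1 and Col6a5 were listed at 0 in all 12 libraries. As many members were untested in the siRNA experiment, 26 of them with a mean under 0.1 TPM. The plot of levels sets members tested in either table side by side.

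**Figure D1:**
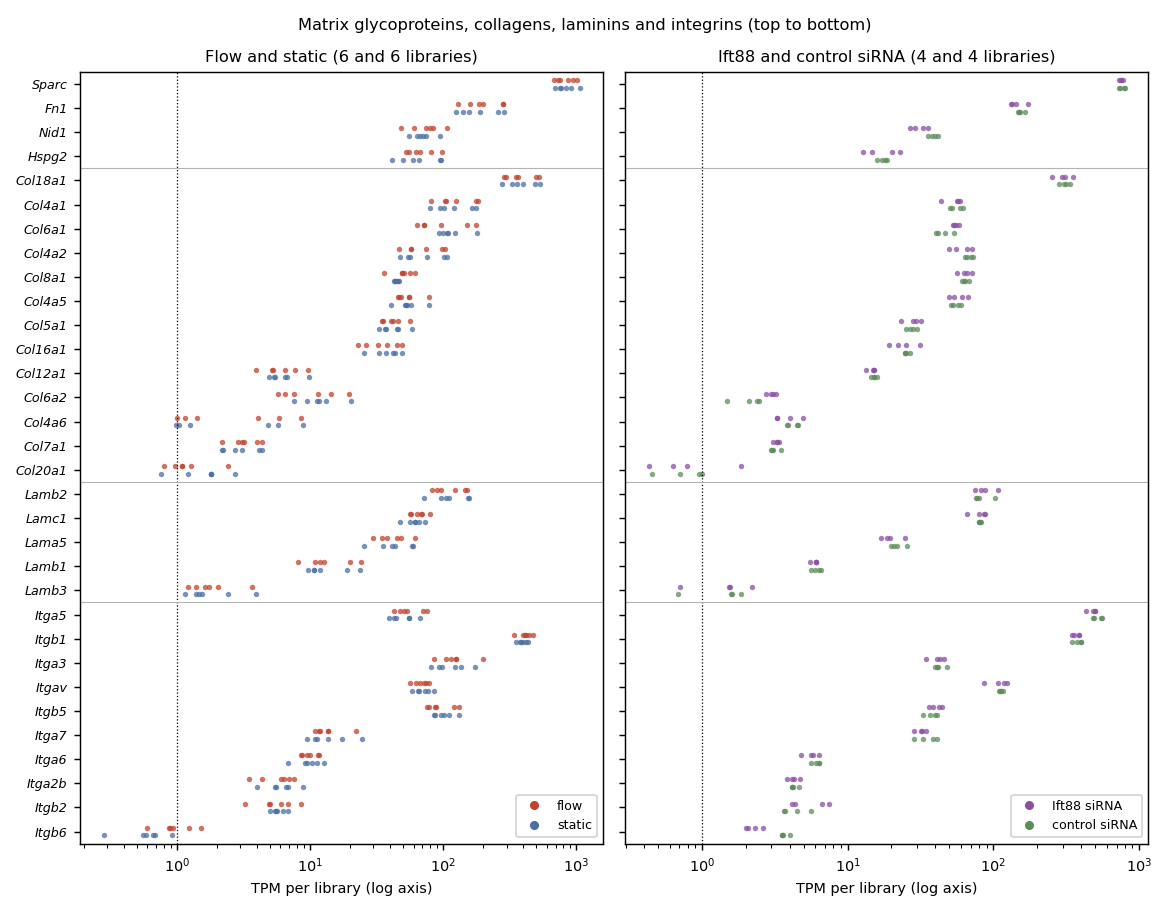
TPM of each library on a log axis for members averaging 1 TPM or more in either table, 1 point per library, flow (6) and static (6) on the left, Ift88 siRNA (4) and control siRNA (4) on the right. From top to bottom the blocks hold matrix glycoproteins, collagens, laminins and integrins. The groups lie over each other for all members shown on the left and for all but Itgb6 and Col6a2 on the right, and Itga5 lies at 434 to 559 TPM on the right and at 38.9 to 75.5 TPM on the left.

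The first comparison asked whether 3 h of shear stress changed the RNA of these genes. None of the 32 tested members was called in either direction. Over all 11388 genes tested, 12 (0.105%) were called higher and 0 (0%) lower under flow. At an unadjusted p under 0.05, 1 member was higher and 0 were lower, against 2.05% and 1.79% of all genes. The median difference was -0.01 over the members and -0.03 over all genes tested, and 14 of 32 members were above 0 against 38.8% of all genes. After median-of-ratios scaling 22 of 32 members were above 0 against 50.8% of all genes, with medians of 0.02 and 0.00, so the count above 0 depended on the scaling. For 26 of the 32 members the 95% confidence interval of the difference lay within 1.5-fold in both directions, as it did for 87.3% of all genes. Those whose interval reached past 1.5-fold included Col20a1, Col6a1, Col6a2, Fn1 and Col4a6. With the replicate block the intervals of all of these named genes lay within 1.5-fold. In no member were the flow and static libraries free of overlap, as they were in 0.492% of all genes higher and 0.0527% lower under flow.

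Blocking on the replicate number, 68 of all genes (0.597%) were called higher and 0 (0%) lower, and again no member was called. At an adjusted p under 0.05 without the fold limit, 0.641% of all genes and no member were higher in that fit, and 31 of 32 members, against 94.2% of genes, had an interval within 1.5-fold. In all 6 same-numbered pairs 1 member was higher and 0 were lower, against 226 (1.98%) and 246 (2.16%) of all genes. These counts depended on replicate 2. Without flow replicate 2, 1 member was called higher and 0 lower, against 0.667% and 0.0966% of all genes. With the block and without pair 2, a fit chosen after seeing the data, 1 member was called higher and 0 lower, against 1.19% and 0.509% of all genes. In that fit 2 members passed a limma adjusted p of 0.05 higher and 2 lower, against 3.24% and 5.44% of all genes, shares of the same order as the members'. Among these 4, Col8a1 (0.26), Col6a1 (-0.36) and Itgb5 (-0.17) did not reach 1.5-fold. Without flow replicate 6, the library with 2 labels, 0 members were called, against 13 of 11388 genes higher and 0 lower. With that library counted as static, 0 members and 0 of all genes were called, so that fit says nothing particular to the members.

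Among laminins, Lamb3 had 1.2, 1.68 and 3.69 TPM as the lowest, median and highest flow library, a difference from static of -0.00 (SE 0.22), and Lama3 was untested. Lamc1, with 56.8, 65.9 and 79.9 TPM under flow, was higher in 5 of 6 pairs by 0.11 (SE 0.11). Lamb1 differed by 0.02 (SE 0.26), Lamb2 by -0.01 (SE 0.20) and Lama5 by -0.02 (SE 0.21), each with a limma adjusted p of 0.998, and the groups overlapped for all of them.

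Among integrins, Itga5 had the largest difference, 0.15 (SE 0.16), with 42.8, 52.5 and 75.5 TPM as the lowest, median and highest flow library. Itgb1, with 343, 417 and 477 TPM under flow, was higher in 5 of 6 pairs by 0.07 (SE 0.08, 95% interval -0.09 to 0.24). Itgb5 was lower under flow in 5 of 6 pairs, by -0.10 (SE 0.15). Itga3 (0.10), Itgav (-0.04), Itga6 (0.01) and Itga2b (-0.10) each had an adjusted p of 0.998. Fn1, whose protein coated the channels, differed by 0.10 (SE 0.23), with 129, 193 and 284 TPM under flow.

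Among collagens, Col8a1 had 36.1, 50.3 and 61.3 TPM under flow. Its highest static library (46.4 TPM) lay below 5 of the 6 flow libraries, and flow replicate 2 was the lowest of all 12, a difference of 0.16 (SE 0.10, adjusted p = 0.998). Col6a1 had 63.4, 84.2 and 177 TPM under flow and was lower than static in 5 of 6 pairs, by -0.25 (SE 0.25). Its partner Col6a2 was lower in 5 of 6 pairs as well, by -0.21 (SE 0.27), and flow replicate 2 was above its static partner in both genes. Col20a1 (-0.23, SE 0.19) and Col16a1 (-0.12, SE 0.19) were also lower in 5 of 6 pairs, and Col20a1 lies close to the limit of testing. Col4a1, Col4a2 and Col18a1 differed by 0.07, -0.01 and -0.04, and Sparc by -0.01 (SE 0.12). None of these differences had an adjusted p under 0.05 with or without the replicate block. With the block the SE was 0.11 for Col6a1 and 0.06 for Col16a1, with limma adjusted p of 0.452 and 0.515.

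**Figure D2:**
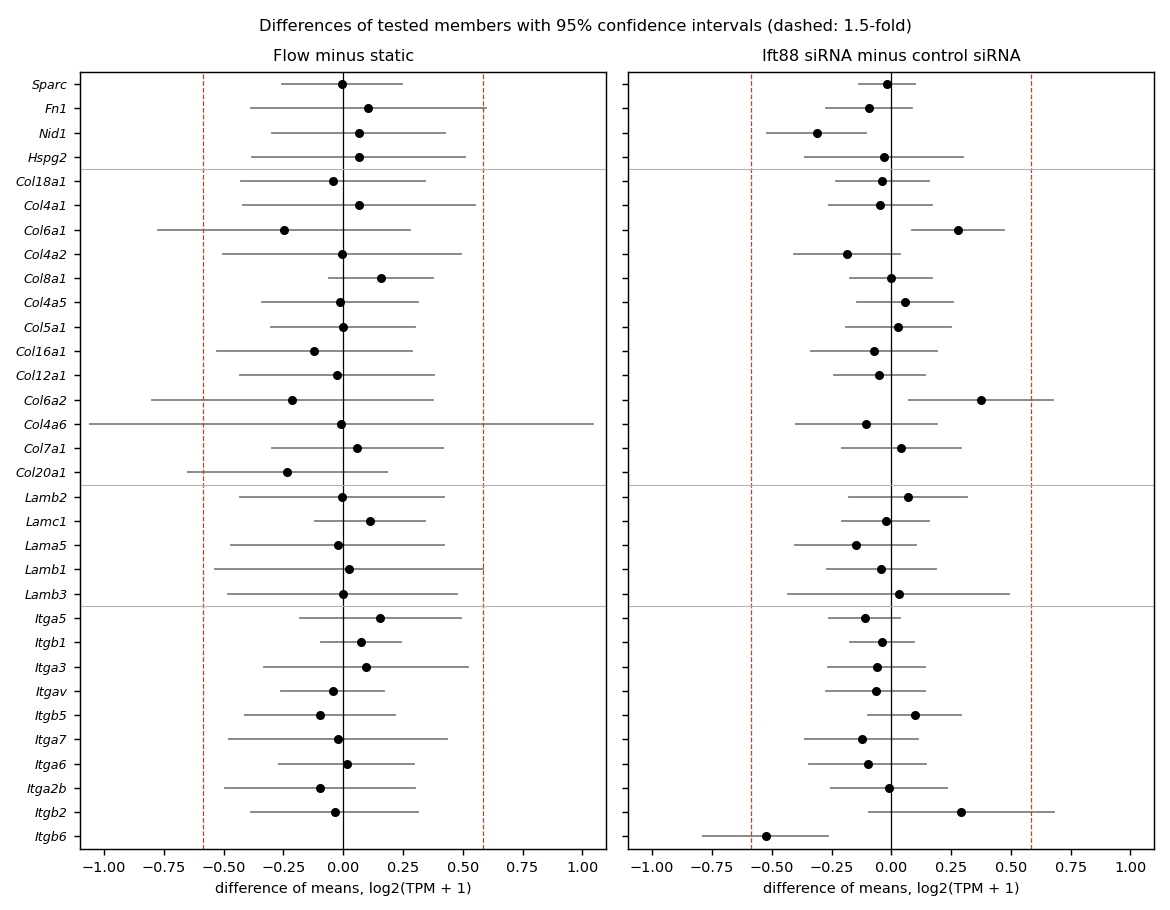
Difference of means on the log2(TPM + 1) scale (points) with the 95% confidence interval from limma (bars), flow minus static on the left and Ift88 siRNA minus control siRNA on the right, for members tested in each table; dashed lines mark 1.5-fold. Intervals cross 0 for all members shown on the left and for all shown on the right but Itgb6, Nid1, Col6a1 and Col6a2, and the widest is that of Col4a6 on the left, from -1.06 to 1.04. All are from the fit without the replicate block, and with the block that of Col4a6 was -0.21 to 0.19.

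Genes that act on these members were examined from lists of their own. Of 26 tested genes of collagen processing, which hydroxylate, fold, export, cleave or crosslink collagen, 0 were called, with a median difference of -0.05. The 3 with the smallest p under flow were P4ha1 (-0.21, SE 0.15), Plod2 (-0.26, SE 0.18) and Plod1 (-0.20, SE 0.14), hydroxylases of proline or lysine in collagen. Of 37 tested genes of the integrin adhesome, the cytoplasmic proteins gathered at integrin tails, 0 were called, with a median of 0.04. The smallest p belonged to Tns3, a tensin (0.22, SE 0.091), Zyx, encoding zyxin (0.29, SE 0.15), and Bcar1, encoding the scaffold p130Cas (0.34, SE 0.18), each with an adjusted p of 0.998.

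The second comparison asked whether loss of Ift88 changed these genes. None of the 32 tested members was called, against 17 (0.152%) of 11209 genes called higher and 8 (0.0714%) called lower. At an adjusted p under 0.05 without the fold limit the members again numbered 0, against 0.455% higher and 0.178% lower of all genes. At an unadjusted p under 0.05, 2 members were higher and 2 lower, against 9.02% and 4.91% of all genes. The median difference was -0.04 over the members and 0.02 over all genes tested, and 10 of 32 members were above 0 against 55% of all genes. The interval of the difference lay within 1.5-fold for 29 of the 32 members and for 90% of all genes, and reached past it for Itgb6, Col6a2 and Itgb2. More genes were listed above 0 with Ift88 siRNA (15713 to 16682 per library) than with control siRNA (15292 to 15382), and the part of this in the differences of low genes was not tested.

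Itgb6 had the smallest p. It encodes the β6 chain, which pairs with αV in epithelia and is known for releasing TGF-β from its latent form, and it lies on chr2:60598292-60722643 (GRCm38, minus strand). The Ift88 siRNA libraries had 2.08, 2.62, 2.31 and 2.01 TPM and the control siRNA libraries 3.54, 4.02, 3.61 and 3.55 TPM. The groups did not overlap, and every Ift88 siRNA library was below every control. The means were 2.26 ± 0.27 and 3.68 ± 0.23 TPM (SD, n = 4 each), a difference of -0.53 (SE 0.12, 95% interval -0.79 to -0.26) with a limma adjusted p of 0.0811, which ranged from 0.0568 to 0.199 over the alternatives. In the flow table Itgb6 was untested, with a mean of 0.809 TPM.

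Nid1 had 35.7, 33.0, 28.9 and 26.7 TPM with Ift88 siRNA and 41.6, 39.6, 35.7 and 37.8 TPM with control siRNA. The highest Ift88 siRNA library and the lowest control met at 35.7 TPM. The difference was -0.31 (SE 0.10, adjusted p = 0.178, 0.0638 to 0.395 over the alternatives). Its binding partners in the basement membrane differed by less, Lamc1 by -0.02 (SE 0.08), Lama5 by -0.15 (SE 0.12), Col4a1 by -0.05 (SE 0.10), Col4a2 by -0.19 (SE 0.10) and Hspg2 by -0.03 (SE 0.15).

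The chains of type VI collagen did not pass the adjusted test either. Col6a1 had 58.6, 53.6, 52.5 and 55.2 TPM against 40.2, 53.5, 41.8 and 46.3 TPM, and a single control library, replicate 2, reached into the range of the other group. The difference was 0.28 (SE 0.09, adjusted p = 0.197, 0.0791 to 0.418 over the alternatives). Col6a2 had 2.73, 3.22, 3.09 and 2.99 TPM against 2.40, 2.45, 1.49 and 2.12 TPM, groups that did not overlap, a difference of 0.37 (SE 0.14, adjusted p = 0.261). The genes are neighbours on chromosome 10, Col6a1 at chr10:76708792-76726168 and Col6a2 at chr10:76595762-76623630 (GRCm38, both minus strand). Non-overlapping groups were found for 1 member in each direction, Col6a2 and Itgb6, against 5.79% of all genes higher and 2.79% lower.

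No other member had an unadjusted p under 0.05. Itgb2 differed by 0.29 (SE 0.18), with 4.15 to 7.41 TPM against 3.65 to 5.61 TPM. Of the main receptor chains, Itgb1 differed by -0.04 (SE 0.06), Itga5 by -0.11 (SE 0.07), Itga3 by -0.06 (SE 0.09), Itgav by -0.06 (SE 0.10), Itgb5 by 0.10 (SE 0.09) and Itga6 by -0.10 (SE 0.11). Lamb2 differed by 0.07 (SE 0.11) and Lamb1 by -0.04 (SE 0.11). Sparc, Col18a1 and Fn1 differed by -0.02 (SE 0.05), -0.04 (SE 0.09) and -0.09 (SE 0.08). The summed TPM of the principal cell markers was 123 to 166 with Ift88 siRNA and 99.7 to 121 with control siRNA, without overlap. That of the basal cell markers had medians of 8.95 and 5.97, also without overlap, and the other marker lists overlapped. Pax8 (0.29), the basal cell marker Cldn1 (0.50) and the smooth muscle marker Tagln (-0.39) had limma adjusted p of 0.245, 0.0928 and 0.327. The part of the markers in the differences of the members was not tested. The plot by group shows the 4 members with an unadjusted p under 0.05.

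**Figure D3:**
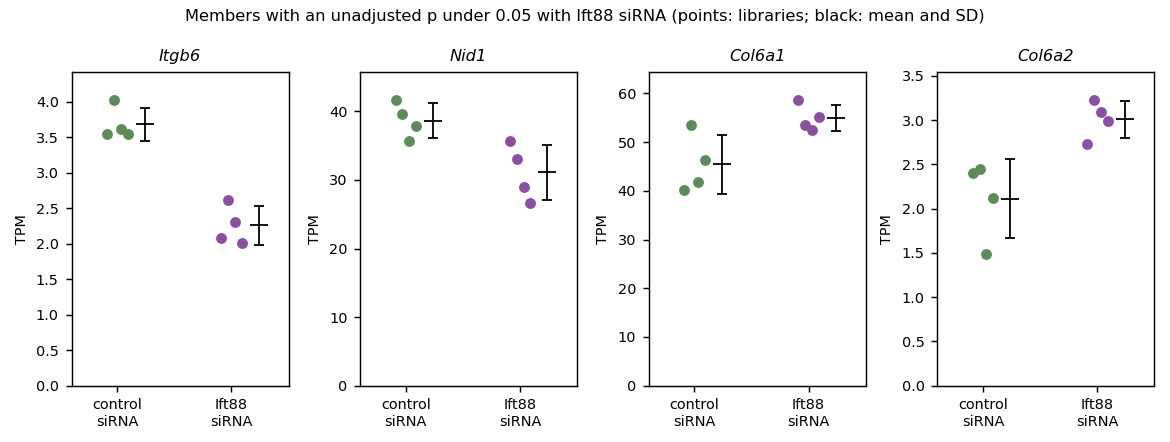
TPM per library (points) with mean and SD (black) for Itgb6, Nid1, Col6a1 and Col6a2 in control siRNA and Ift88 siRNA libraries (4 each). Itgb6 and Col6a2 are the panels whose groups do not overlap, and the 4 Ift88 siRNA libraries of Itgb6 lie between 2.01 and 2.62 TPM.

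Of the 26 tested genes of collagen processing, 0 were called with Ift88 siRNA (median difference 0.04). At an unadjusted p under 0.05, 3 were higher and 2 lower, against 9.02% and 4.91% of all genes. The 3 with the smallest p were Mia3, which helps load collagen for export from the endoplasmic reticulum (-0.38, SE 0.10, adjusted p = 0.109), the lysyl hydroxylase Plod3 (-0.19, SE 0.08) and P4hb, a subunit of prolyl hydroxylase (0.12, SE 0.05). Of 38 tested genes of the integrin adhesome 0 were called (median 0.02). At that unadjusted p 4 were higher and 2 lower, against the same 9.02% and 4.91% of all genes. Bcar1 (0.28, SE 0.07, adjusted p = 0.0905), Kank1 (0.38, SE 0.13) and Tns2 (0.26, SE 0.09) had the smallest p.

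For most of these genes in the flow table, replicates 1 to 3 and 4 to 6 differed more than flow and static did. Col8a1 (-0.02 and 0.16 in that order) and Itgb5 (0.04 and -0.10) were among those that went the other way. The first principal component of all tested genes held 34.4% of the variance and set apart replicates 1 to 3 from replicates 4 to 6 in both groups. The second held 25.8%, with flow above static in every same-numbered pair but pair 2. The labels name no batch for the split between replicates 1 to 3 and 4 to 6, so it is described without a test. Among the members, 29 of 32 had a higher mean over the 6 libraries of replicates 4 to 6 than over the 6 of replicates 1 to 3, with a median ratio of 1.42. Over all genes tested 73.9% were higher, with a median ratio of 1.09. In 10 members the 6 later-numbered libraries all exceeded the 6 others, and 0 went the opposite way, against 8.60% and 0.834% of all genes. After median-of-ratios scaling, which brought the median ratio of all genes to 0.995, the median ratio of the members was 1.29. The members without overlap were then 5, Col4a1, Col4a2, Col4a6, Sparc and Itga7, all higher in replicates 4 to 6, against 3.44% of all genes higher and 2.75% lower. Before scaling 11 members had means over 1.5-fold apart, against 6.96% of all genes. After scaling 5 members, and 364 of 11388 genes, had a mean over 1.5-fold higher in replicates 4 to 6. Fn1, Hspg2 and Itga3 then had ratios of 1.48, 1.39 and 1.39.

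The member with the largest ratio was Col4a6, a type IV collagen chain. It had 0.998, 1.42 and 1.14 TPM in flow replicates 1 to 3 and 4.06, 8.50 and 5.89 TPM in flow replicates 4 to 6. In static replicates 1 to 3 it had 0.991, 1.25 and 1.03 TPM and in static replicates 4 to 6 4.83, 8.84 and 5.79 TPM. The 2 sets of replicates were thus far apart, and within a replicate number flow and static were close. The ratio of the means was 5.54, and 5.02 after scaling.

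Col4a1 and Col4a2 had ratios of 1.67 and 1.74. Col4a1 ranged from 79.9 to 105 TPM in replicates 1 to 3 and from 121 to 182 TPM in replicates 4 to 6, in both conditions together. Col4a5, the head-to-head neighbour of Col4a6, ranged from 40.3 to 57.7 TPM and from 48.4 to 78.6 TPM, which overlapped, with a ratio of 1.23. Lamb1 (1.76), Fn1 (1.63), Hspg2 (1.53), Itga3 (1.52) and Lama5 (1.47) had higher ratios than Itgb1 (1.14), Nid1 (1.14) and Itgb5 (1.03). Itgb2 (0.900) and Col8a1 (0.975) were among the members with ratios under 1.

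**Figure D4:**
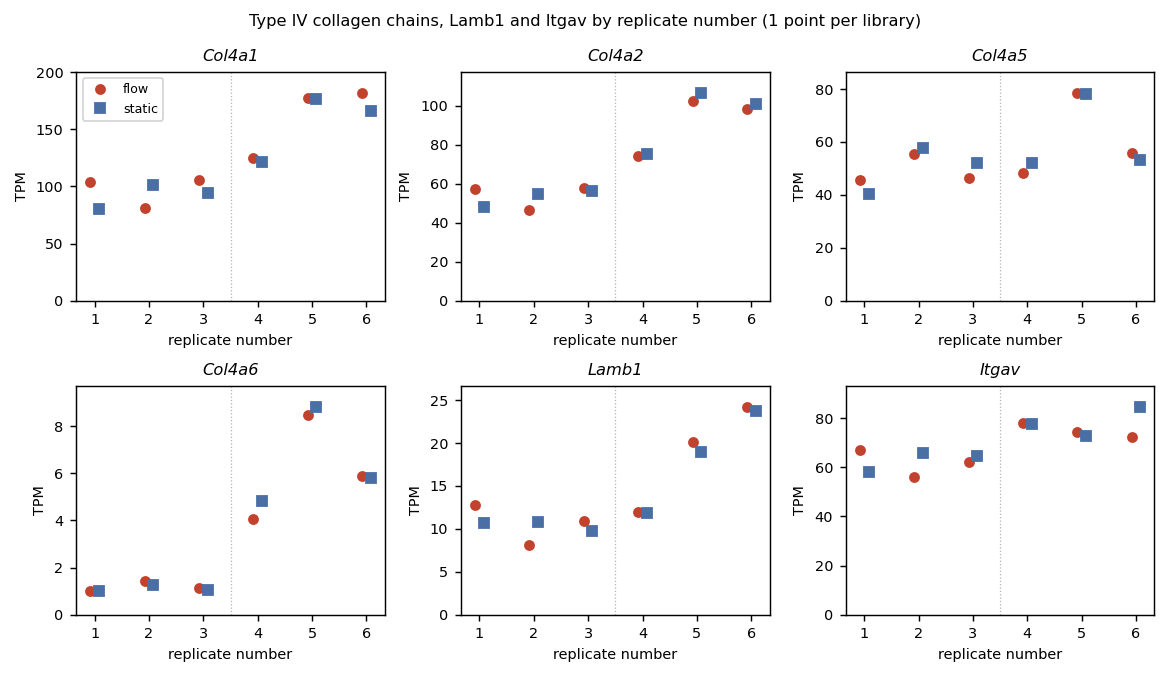
TPM per library against replicate number for Col4a1, Col4a2, Col4a5, Col4a6, Lamb1 and Itgav in flow (circles) and static (squares); the dotted line parts replicates 1 to 3 from 4 to 6. Flow and static of the same number lie close together, Col4a6 is at 0.991 to 1.42 TPM to the left of the line and at 4.06 to 8.84 TPM to the right, and Col4a5 overlaps across it.

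The flow response itself was compared between these replicates. In the test of the interaction, 0 of 32 members passed an adjusted p of 0.05, as did 0 (0%) of all 11388 genes in each direction, and 0 members passed an unadjusted p of 0.05, against 0.966% of genes higher and 1.12% lower. With the replicate block 18 genes (0.158%) passed higher and 0 (0%) lower, and no member did. The interval of this difference lay within 1.5-fold for 11 of the 32 members, against 55.8% of all genes, and with the replicate block for 22 of 32, against 70.9%. For the others the interval reached past 1.5-fold, so a difference of that size was not excluded.

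Marker levels were set beside the same split. The summed TPM of the 9 epithelial markers was 77.1 to 102 (median 82.7) in replicates 1 to 3, where 1 of them was listed at 0, and 114 to 299 (median 140) in replicates 4 to 6, without overlap. The other lists overlapped across the split. The median of the summed fibroblast markers was 25.0 (21.6 to 26.2) and then 15.2 (11.1 to 27.4), with 2 and 1 of 9 at 0, Thy1 in every library. That of the 5 smooth muscle markers was 3.69 (2.24 to 4.85) and then 6.73 (3.46 to 11.7), and that of the 5 leukocyte markers 14.7 (10.5 to 16.4) and then 22.3 (14.6 to 65.2), with Adgre1 and Cd3e at 0. The medians were 107 and 120 for the 10 principal cell markers (93.1 to 122 and 102 to 157), 6.14 and 6.05 for the 5 basal cell markers (5.64 to 8.51 and 4.16 to 9.09), and 0.697 and 0.884 for the 5 endothelial markers (0.624 to 1.17 and 0.671 to 1.97). A few genes made up most of several sums. Means over the flow table were 21.4 TPM for Cd68, 17.8 TPM for Postn and 82.3 TPM for Pax8. Those of Krt18 and Cldn4 were 52.1 and 48.2 TPM. The sums therefore follow these genes more than the whole lists. The part of the markers in the levels of the collagens and laminins was not tested.

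Levels were also set side by side between the tables. Since the tables were scaled apart and come from separate experiments, the table and the treatment cannot be told apart and no test was made. Itga5 had a mean of 57.0 TPM in the flow libraries and of 519 TPM in the control siRNA libraries, a ratio of 9.10, and its share of the summed integrin α chain TPM was 19.4% in the first table and 71.5% in the second. Itga3 had 126 and 42.8 TPM in the same order, Hspg2 69.4 and 17.5 TPM, and Col6a2 10.9 and 2.11 TPM. Sparc (834 and 764 TPM), Itgb1 (415 and 381 TPM) and Col4a5 (55.1 and 55.4 TPM) had closer means. Means over 2-fold apart were found for 10 of 31 members, against 29.6% of the 10876 genes tested in both tables. Lama5, Lamb2, Lamc1, Itgb1 and Col18a1 were the leading chains of their classes in both tables. Markers differed between flow and control siRNA libraries as well. Cldn4 had means of 66.2 and 2895 TPM, Krt18 56.4 and 144 TPM, and Cd68 18.6 and 94.5 TPM. Pax2 was lower in the second (31.8 and 8.39 TPM), and Pax8 closer (83.0 and 99.7 TPM). The part of the markers in the levels of the members was not tested.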

How the data were processed

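RNA-seq libraries of DC2 cells, 12 in the flow table and 8 in the siRNA table, were grouped by their sample titles. The authors deposited TPM per gene, 1 table per experiment. According to the study's methods, poly(A)-selected directional libraries were quantified by the authors with kallisto against Ensembl mouse transcripts and brought to gene level with tximport. The methods name Trimmomatic for trimming, whereas the submitters' processing notes list fastp 0.20.0, FastQC 0.11.8, MultiQC 1.8 and kallisto 0.46.2. TPM are corrected for length and sum to 1000000 per library, so they hold neither depth nor counts, and the precision from counting is unknown. All sample columns were used.

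From the deposited TPM, log2(TPM + 1) was tested for every gene averaging 1 TPM or more with the functions lmFit and eBayes (intensity trend) of limma 3.58.1, run in R 4.3.3, without covariates, and the p-values were adjusted by the Benjamini-Hochberg method. DESeq2, which the authors used, needs counts. The procedure was tested on simulated data. Summaries were made in Python 3.11.15 with pandas 2.3.3 and numpy 2.4.6, and figures with matplotlib 3.10.9.

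Whether replicate numbers pair the libraries was checked from each library's departure from the mean of its group. Between flow and static libraries of one number these correlated over genes at 0.294, 0.463, 0.425, 0.468, 0.662 and 0.600 for replicates 1 to 6. The numbers were therefore treated as pairs in a blocked fit, which is given where it changes a count. Unless stated, SE, intervals and p-values of single members are from the fit without the block and leave out the pairing. With the block the SE under flow were smaller, for Col4a6 0.09 against 0.49 and for Col6a1 0.11 against 0.25.

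Members were given in full if they had an adjusted p under 0.05 with or without the block, were among the 5 largest differences in either direction of a comparison or the 10 highest mean TPM in static cells, or were subunits of the main laminins, of type IV collagen or of the integrins of epithelia. Of the other lists, the 3 genes with the lowest p are named. Alternatives were other filters, pseudocounts and scalings, library weights, the block, and leaving out libraries. The members, the lists of roles, markers, collagen processing and integrin adhesome genes, and the tests were chosen with earlier results of these data known. Positions are from GENCODE M21 and sequences from the RefSeq promoter table (GRCm38.p6), an older build than the authors' annotation. That table holds 61 of the 85 members, and 25 of the 32 tested under flow. Of the members and markers examined, 1 each is counted but not reported here.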

Additional observations from a re-analysis of the deposited data

Results flagged for a closer look

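In 100 groups of values of the named members, 7 held a library whose gap to the rest was large for the range of its group, where chance gives about 1 in 20. Among flow libraries, replicate 6, the library with 2 labels, was the highest for Col20a1 (2.43 TPM, the others 0.797 to 1.27), Itga3 (199 TPM, the others 86.2 to 125) and Lamb3 (3.69 TPM, the others 1.2 to 2.03). Its static partner, replicate 6, was the highest static library for the same 3 genes, with 2.73, 174 and 3.95 TPM. Static replicate 5 was the highest for Col6a1 (180 TPM, the others 93.7 to 123). Control siRNA replicate 2 was the highest for Itgb6 (4.02 TPM, the others 3.54 to 3.61) and Lamb2 (102 TPM, the others 76.0 to 79.7). Ift88 siRNA replicate 1 was the lowest for Lamb1 (5.49 TPM, the others 6.03 to 6.10). No member's flow response differed between replicates 1 to 3 and 4 to 6 by the interaction test.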

How the results depend on the processing

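Under flow, leaving out 1 library at a time gave 0 to 1 members called and 0 to 1 at an adjusted p under 0.05, the 1 being reached without flow replicate 2. In the same fits 5 to 76 of all genes tested were called higher and 0 to 11 lower. With the replicate block and without pair 2, a setting chosen after seeing the data, 1 member was called and 4 passed an adjusted p of 0.05, where 135 of all 11388 genes were called higher and 58 lower and 369 and 620 passed that p; the cause was not tested. The replicate block on all pairs called 0 members, and all other alternatives run for the flow comparison, the interaction and the siRNA comparison also gave 0 called. Uncalled differences of the named members changed sign in 114 of 773 alternatives for flow, in 24 of 346 for siRNA and in 84 of 400 for the interaction. In the siRNA comparison same-numbered libraries correlated at 0.046, 0.003, 0.259 and 0.176, so the numbers were not taken as pairs. The replicate block there called 32 genes higher and 12 lower, against 17 and 8 without it, and 0 members. Depth is unknown, and differences of members near 1 TPM are the least certain.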
